A study of Mus musculus with 3 samples.

Results

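The 10 genes described here are Clec4f, Cd5l, Timd4, Marco, Spic, Cd163, Cd68, Adgre1, Csf1r and Mrc1, a set of Kupffer cell and macrophage genes. They were found by gene name on the arrays, where Adgre1 is listed under its older symbol Emr1, and they are 10 of the 19712 genes to which probes could be assigned. Together they have 14 probes: 7 genes have 1 probe each, Spic and Adgre1 have 2, and Csf1r has 3. RNA was taken from adult liver of C57BL/6 mice aged 12 weeks, from fetal liver of the same strain at gestation day 13.5, and from bone marrow of the same strain, for which the sample's own labels give no age. The study compared gene expression between these tissues, with 1 Cy3-labelled Agilent array for each. The labels do not say how many animals gave each RNA, so there is no measure of variation between animals, and no difference below has a test. The RNA was that of whole tissue, so fewer cells of a type and less RNA per cell cannot be told apart.

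Macrophages are resident phagocytes that take up pathogens, dying cells and debris, and they depend on signalling through the receptor encoded by Csf1r. Kupffer cells are the macrophages of the adult liver: they line the sinusoids, clear particles and aged red cells from the blood, and carry receptors that few other macrophages have. In the fetal liver and the bone marrow, macrophages stand at the centre of erythroblastic islands, in which red cell precursors mature. The bone marrow also produces monocytes, which carry several of the genes that mark macrophages.

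Each signal below is the background-corrected signal of the scanner software, followed by the software's own error of that spot, which covers the spot and not the animals. Arrays were made comparable by dividing by the 75th percentile of the array, so that a scaled signal of 100 stands for that percentile. The percentile was 296 in adult liver, 387 in fetal liver, against 894 in bone marrow. All differences and folds are between scaled signals of the same probe, and a gene counts as higher in a tissue from 4-fold upwards. For the probes that stand for the 10 genes, the error of a difference, propagated from both spots, lay between 0.20 and 0.22 on the log2 scale, and it reached 0.33 for the second Spic probe and 0.36 for the dimmest Csf1r probe. Where a probe was not well above background on one array, the fold is a lower bound, taken against the lowest scaled signal that was well above background on that array or the probe's own signal if that was higher.

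The arrays were alike in saturation and in the spread of repeat spots, but not in the level of the spike-in controls. Before scaling, these controls lay at 0.45 in adult liver, 0.34 in fetal liver, against -0.78 in bone marrow. These values are on the log2 scale, relative to the mean of the 3 arrays. Of 43379 gene spots, the share well above background was 52.6% in adult liver, 58.7% in fetal liver, against 58.8% in bone marrow, and no gene spot was saturated. The median SD of repeat spots of a probe was between 0.052 and 0.068 on the log2 scale. Marker genes were set beside the tissue labels. They were chosen with earlier results of these data known, so they are no independent check of the labels. The summed scaled signal of 6 hepatocyte genes was 123465 in adult liver, 73252 in fetal liver, against 49.9 in bone marrow. That of 8 neutrophil genes was 297 in adult liver, 14644 in fetal liver, against 181384 in bone marrow, and that of 7 erythroid genes was 5262 in adult liver, 74662 in fetal liver, against 52937 in bone marrow. Single genes made up much of some sums. Afp gave 54386 of the hepatocyte sum in fetal liver, and Alas2 gave 5135 of the erythroid sum in adult liver.

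With percentile scaling, Clec4f and Timd4 were lowest in bone marrow, Cd68 was highest there, and Mrc1 differed least. Promoter sequences are shown for these 4 genes, which were picked by hand. Each runs 5′ to 3′ on the strand of the gene, from 250 bases before the RefSeq transcript start to 50 bases after it, in the build GRCm38.p6. Capitals mark matches, on either strand, to the core GAGGAA bound by PU.1, the ETS factor of myeloid cells, to the MAF recognition core TGCTGAC, and to the AP-1 site TGANTCA. The Clec4f window (chr6:83656067-83656366, minus strand) holds none of them.
Clec4f: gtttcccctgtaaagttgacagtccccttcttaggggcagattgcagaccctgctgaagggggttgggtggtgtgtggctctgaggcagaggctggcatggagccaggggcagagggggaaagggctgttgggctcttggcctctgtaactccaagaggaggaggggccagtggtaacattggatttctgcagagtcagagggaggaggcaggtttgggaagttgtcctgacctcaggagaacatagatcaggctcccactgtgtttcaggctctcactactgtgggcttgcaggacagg
The Timd4 window (chr11:46810549-46810848, plus strand) holds a MAF motif, read here on the opposite strand.
Timd4: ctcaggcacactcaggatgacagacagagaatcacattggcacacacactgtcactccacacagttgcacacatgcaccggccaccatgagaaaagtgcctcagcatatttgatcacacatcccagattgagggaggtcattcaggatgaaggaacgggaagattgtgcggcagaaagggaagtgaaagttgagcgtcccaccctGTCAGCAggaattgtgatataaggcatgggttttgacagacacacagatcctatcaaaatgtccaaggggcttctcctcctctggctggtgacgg
The Cd68 window (chr11:69666121-69666420, minus strand) holds 2 PU.1 cores and 2 AP-1 sites.
Cd68: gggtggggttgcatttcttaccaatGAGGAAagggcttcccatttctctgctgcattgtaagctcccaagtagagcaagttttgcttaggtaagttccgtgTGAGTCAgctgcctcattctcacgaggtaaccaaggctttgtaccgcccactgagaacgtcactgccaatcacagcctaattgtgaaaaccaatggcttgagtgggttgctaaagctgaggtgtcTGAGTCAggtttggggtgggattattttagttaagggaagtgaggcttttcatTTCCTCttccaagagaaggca
The Mrc1 window (chr2:14229164-14229463, plus strand) holds 3 PU.1 cores, all on the opposite strand.
Mrc1: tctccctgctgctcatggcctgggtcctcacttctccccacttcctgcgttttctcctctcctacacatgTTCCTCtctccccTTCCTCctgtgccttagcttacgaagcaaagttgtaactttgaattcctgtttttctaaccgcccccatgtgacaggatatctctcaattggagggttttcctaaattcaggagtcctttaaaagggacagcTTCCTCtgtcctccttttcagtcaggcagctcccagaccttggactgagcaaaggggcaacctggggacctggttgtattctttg
Promoters were found for 8 of the 10 genes. The PU.1 core was in 4 of these 8 windows (Cd5l, Marco, Cd68 and Mrc1), against 28.3% of the 32851 windows of 300 bases in the RefSeq table. The MAF motif was in 1 of 8 (Timd4), against 4.67% of windows, and the AP-1 site in 1 of 8 (Cd68), against 7.81%. The last letters of a MAF motif can also begin an AP-1 site, which did not occur in these 4 windows. TATAAA was in none of the 8, against 13.6% of windows. A match describes these letters and is no evidence of binding.

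Among the receptors that mark Kupffer cells, Clec4f differed most between the tissues. Clec4f encodes a C-type lectin of rodent Kupffer cells that binds galactose-bearing glycans. Its probe (chr6:83595281-83595339, build mm9) gave a signal of 3850 ± 385 in adult liver, 63.0 ± 7.17 in fetal liver, against 10.8 ± 5.41 in bone marrow, where it was not well above background. The scaled signals were 1301 in adult liver, 16.3 in fetal liver, against 1.21 in bone marrow. Adult liver was thus 79.9-fold above fetal liver (6.32 ± 0.22 on the log2 scale, spot error) and at least 491-fold above bone marrow. Of all genes compared, 1.68% were as far or further apart in that direction in each of these comparisons. Fetal liver was at least 6.14-fold above bone marrow.

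Timd4, a receptor for phosphatidylserine on dying cells, separated both livers from bone marrow with percentile scaling, but not with spike-in scaling. Its probe (chr11:46657173-46657232, mm9) gave 206 ± 21.1 in adult liver, 221 ± 22.3 in fetal liver, against 89.5 ± 10.4 in bone marrow, or scaled signals of 69.6 in adult liver, 57.1 in fetal liver, against 10.0112 in bone marrow. The 2 livers were 1.22-fold apart, a difference of 0.29 ± 0.21 on the log2 scale that lies within 2 spot errors. Adult liver was 6.95-fold and fetal liver 5.70-fold above bone marrow. Under spike-in scaling the differences from bone marrow were -0.029 in adult liver and 0.19 in fetal liver on the log2 scale.

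Marco was the only one of the 10 genes with its highest scaled signal in fetal liver. It encodes a collagen-like scavenger receptor that binds bacteria and particles. The probe (chr1:122371115-122371134, mm9) gave 2300 ± 230 in adult liver, 12500 ± 1250 in fetal liver, against 5140 ± 514 in bone marrow, or scaled signals of 777 in adult liver, 3230 in fetal liver, against 575 in bone marrow. Adult liver was 4.16-fold below fetal liver, fetal liver was 5.62-fold above bone marrow, and adult liver and bone marrow were 1.35-fold apart.

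Cd163, the scavenger receptor for haemoglobin bound to haptoglobin, was not well above background in fetal liver. Its probe (chr6:124280484-124280543, mm9) gave 562 ± 56.4 in adult liver, 4.67 ± 3.25 in fetal liver, against 871 ± 87.3 in bone marrow. The scaled signals were 189.9 in adult liver, 1.21 in fetal liver, against 97.4 in bone marrow. Adult liver was at least 49.0-fold above fetal liver and fetal liver at least 25.1-fold below bone marrow, while adult liver was 1.95-fold above bone marrow. Its order therefore differs from that of Clec4f, which was lowest in bone marrow.

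Cd5l encodes a secreted protein with scavenger receptor cysteine-rich domains, made by macrophages and carried in blood. It was bright on each array, with 17700 ± 1770 in adult liver, 5640 ± 564 in fetal liver, against 10400 ± 1040 in bone marrow (probe at chr3:87174823-87174882, mm9). The scaled signals of 5980 in adult liver, 1457 in fetal liver, against 1163 in bone marrow put adult liver 4.10-fold above fetal liver and 5.14-fold above bone marrow. Fetal liver and bone marrow were 1.25-fold apart, which is within 2 spot errors.

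Spic encodes an ETS transcription factor, related to PU.1, that is needed for the red pulp macrophages of the spleen and is induced by haem. It was the only one of the 10 genes that was lowest in adult liver. The first probe (chr10:88138053-88138112, mm9) gave 122 ± 12.9 in adult liver, 799 ± 79.9 in fetal liver, against 2590 ± 259 in bone marrow, or scaled signals of 41.2 in adult liver, 206 in fetal liver, against 289.7 in bone marrow. Adult liver was 5.01-fold below fetal liver and 7.03-fold below bone marrow, and fetal liver was 1.40-fold below bone marrow. The second probe, 113 bases away, gave the same order, with adult liver 5.61-fold below fetal liver and 11.3-fold below bone marrow.

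The 4 genes carried by macrophages of many tissues were each lowest in fetal liver, as Cd163 was, and 3 of the 4 were highest in bone marrow. Cd68 encodes a lysosomal glycoprotein of phagocytes. Its probe (chr11:69478314-69478373, mm9) gave 202 ± 20.7 in adult liver, 151 ± 15.5 in fetal liver, against 4660 ± 466 in bone marrow, or scaled signals of 68.2 in adult liver, 39.0 in fetal liver, against 521 in bone marrow. Adult liver was 1.75-fold above fetal liver and 7.64-fold below bone marrow, and fetal liver was 13.4-fold below bone marrow. Of the genes compared, 2.81% were as far or further apart in that direction between fetal liver and bone marrow.

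Adgre1 encodes F4/80, the adhesion G protein-coupled receptor by which mouse macrophages are commonly sorted. Its brighter probe (chr17:57622843-57622902, mm9) gave 1550 ± 155 in adult liver, 1480 ± 149 in fetal liver, against 12400 ± 1240 in bone marrow, with scaled signals of 524 in adult liver, 382 in fetal liver, against 1387 in bone marrow. Adult liver was 1.37-fold above fetal liver and 2.65-fold below bone marrow, and fetal liver was 3.63-fold below bone marrow. The other probe, 72.6 kb away, was not well above background in either liver and gave 77.0 in bone marrow.

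Csf1r encodes the receptor for the growth factors CSF1 and IL34, on which most tissue macrophages depend. Its brightest probe gave 1640 ± 164 in adult liver, 810 ± 81.1 in fetal liver, against 6230 ± 623 in bone marrow, with scaled signals of 554 in adult liver, 209 in fetal liver, against 697 in bone marrow. Adult liver was 2.65-fold above fetal liver and, at 1.26-fold below bone marrow, within 2 spot errors of it, while fetal liver was 3.33-fold below bone marrow. The second probe, 0.986 kb away, put adult liver 2.94-fold and fetal liver 6.94-fold below bone marrow, so the last of these passes 4-fold on 1 of the 3 Csf1r probes. The dimmest probe, 20.962 kb away, had scaled signals of 4.29 in adult liver, where it was not well above background, 4.50 in fetal liver, against 6.77 in bone marrow.

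Mrc1 encodes the mannose receptor, which clears glycoproteins and is also carried by liver sinusoidal endothelium. It varied least of the 10 genes. Its probe (chr2:14253304-14253364, mm9) gave 711 ± 71.3 in adult liver, 584 ± 58.5 in fetal liver, against 1670 ± 167 in bone marrow, with scaled signals of 240.2 in adult liver, 151 in fetal liver, against 187 in bone marrow. Adult liver was 1.59-fold above fetal liver, and both livers lay within 2 spot errors of bone marrow.

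**Figure D1:**
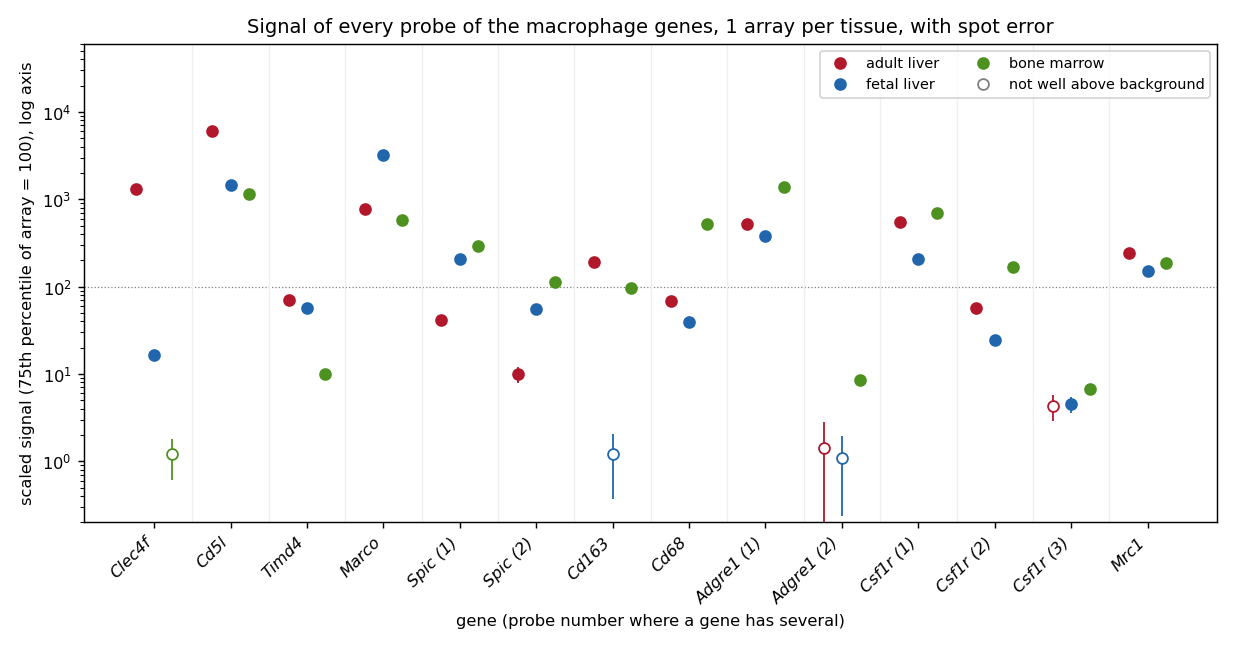
Scaled signal of all 14 probes of the 10 genes on each array (log axis, 75th percentile of the array = 100), with adult liver, fetal liver and bone marrow from left to right for each probe; open points were not well above background and bars are the software's error of the spot. Clec4f spans 1301 in adult liver to 1.21 in bone marrow, Marco peaks in fetal liver at 3230, and Cd163 is not well above background in fetal liver.

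Taken by order of level with percentile scaling, 5 of the 10 genes were highest in adult liver (Clec4f, Cd5l, Timd4, Cd163 and Mrc1). Highest in fetal liver was 1 (Marco), and 4 were highest in bone marrow (Spic, Cd68, Adgre1 and Csf1r). Among the 8 of them well above background on all 3 arrays, which leaves out Clec4f and Cd163, 3 were highest in adult liver, 1 in fetal liver, against 4 in bone marrow. Of all 11688 such genes, 40.0% were highest in adult liver, 33.5% in fetal liver, against 26.5% in bone marrow. The lowest level was in adult liver for 1 of the 10 (Spic), in fetal liver for 5 (Cd163, Cd68, Adgre1, Csf1r and Mrc1) and in bone marrow for 4 (Clec4f, Cd5l, Timd4 and Marco). Among the same 8 genes these counts were 1, 4 and 3, and of the 11688 genes 37.0% were lowest in adult liver, 22.1% in fetal liver, against 40.8% in bone marrow. Of 26 differences measured on both sides, 5 were smaller than 2 spot errors: Timd4 between the livers, Cd5l and Mrc1 between fetal liver and bone marrow, and Csf1r and Mrc1 between adult liver and bone marrow. The order of level depends on the scaling. Of the 5 genes highest in adult liver, only Clec4f remained so under spike-in scaling. There Cd5l had -0.46, Timd4 -0.029, Cd163 -1.86 and Mrc1 -2.46 on the log2 scale for adult liver minus bone marrow. Scaling to the median left Mrc1 at 0.002 in that comparison.

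Between adult and fetal liver, Clec4f, Cd163 and Cd5l were higher in adult liver, Marco and Spic were higher in fetal liver, and Timd4 was within 4-fold. At least 4-fold higher in adult liver were 3 of the 10 genes (Clec4f, Cd5l and Cd163), against 14.2% of the 14185 genes compared. At least 4-fold higher in fetal liver were 2 of the 10 (Marco and Spic), against 12.0%. In either direction this is 5 of 10, against 26.2% of genes. The median difference of the 10 genes was 0.74 on the log2 scale, against -0.05 over all genes compared. Cd5l and Marco lay just past 4-fold. The Cd5l call ended under 4 settings, with 1.51 on the log2 scale under quantile normalization, 1.53 under spike-in scaling, 1.96 with normexp background correction and 1.49 with normexp and quantile normalization. The Spic call ended with normexp, at -1.87, and with normexp and quantile normalization, at -1.98.

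Other genes of Kupffer cells were higher in adult liver where they differed: 5 of 12 were at least 4-fold higher there and none in fetal liver, with a median difference of 1.34 on the log2 scale. Spike-in scaling gave 5 and 2. Against the counts of this and the next lists stand 14.2% of all genes higher in adult liver and 12.0% higher in fetal liver. Vsig4, a complement receptor of tissue macrophages, gave 592 in adult liver and 3.46 in fetal liver, where it was not well above background, which makes a difference of at least 51.6-fold. C6, a complement component that Kupffer cells and hepatocytes express, exceeded its fetal level at least 122-fold in adult liver. Hepatocyte genes moved the same way, with 5 of 6 higher in adult liver and 1 in fetal liver. The part of hepatocytes in C6 and in the other genes of this list was not tested. Of 19 other macrophage genes compared, 3 were higher in adult liver, near the 14.2% of all genes, and none in fetal liver. With normexp background correction 1 of 18 was higher in adult liver. The median of this list was 0.48 on the log2 scale, and -0.05 under spike-in scaling. Cd14, the co-receptor for bacterial lipopolysaccharide, was 6.36-fold and Mpeg1, which encodes a pore-forming protein of phagocytes, 5.40-fold higher in adult liver.

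Ligands and regulators of the 10 genes also differed between the livers. Il34, a ligand of the Csf1r protein, had scaled signals of 84.1 in adult liver and 8.40 in fetal liver, a 10.02-fold difference, whereas Csf1, the other ligand, had 122 in adult liver and 151 in fetal liver. Of the 13 growth factors and transcription factors of macrophages compared, 5 were higher in adult liver and none in fetal liver, or 3 and 1 under spike-in scaling. Cebpa, 15.6-fold higher in adult liver, is also a transcription factor of hepatocytes. Spi1, the gene of PU.1, was not well above background in either liver.

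Of 13 scavenger receptors and related proteins compared, 4 were higher in adult liver and none in fetal liver, led by Cd36, a receptor for fatty acids and oxidised lipids, at 15.0-fold and Scarb2, a lysosomal membrane protein, at 10.3-fold. Msr1, the class A scavenger receptor akin to Marco, was only 1.39-fold higher in adult liver. Of 14 genes of engulfment, 3 were higher in adult liver and none in fetal liver (median 0.34, and -0.17 under spike-in scaling), among them Gas6, a bridging ligand between dying cells and phagocytes, at 10.3-fold. Havcr1, a relative of Timd4, was 6.96-fold higher in adult liver by its brighter probe, while its other probe was not well above background in adult liver. Timd2, another relative of Timd4, was 1.29-fold higher in adult liver by the probe that stands for it, and 14.5-fold higher by its other probe, so its difference between the livers is uncertain.

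Genes of the macrophage island and of red cell recycling went both ways. Of 17 compared, 2 were higher in adult liver and 4 in fetal liver. Haptoglobin (Hp), whose protein delivers haemoglobin to the Cd163 receptor, was 204-fold higher in adult liver, and haemopexin (Hpx), which carries haem, 51.5-fold higher. Both are made by hepatocytes. Icam4, an adhesion molecule by which erythroblasts bind island macrophages, was at least 226-fold lower in adult liver, and Epor, the erythropoietin receptor of red cell precursors, 79.8-fold lower. Erythroid markers were lower in adult liver for 6 of 7 genes, beside the lower Spic and Marco, and their part in those differences was not tested.

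Among relatives of the 10 genes, 4 of 15 were higher in adult liver and 3 in fetal liver, or 1 and 2 with normexp background correction. Adgre4, akin to Adgre1, was 6.50-fold higher in adult liver, and Adgre5, of the same family, 1.97-fold higher. Pla2r1, of the mannose receptor family, was 6.84-fold higher in adult liver, whereas Ly75 of the same family was 11.2-fold lower. Mrc2, also of that family, was 2.63-fold lower in adult liver, and Kit, a receptor akin to Csf1r, 6.17-fold lower.

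**Figure D2:**
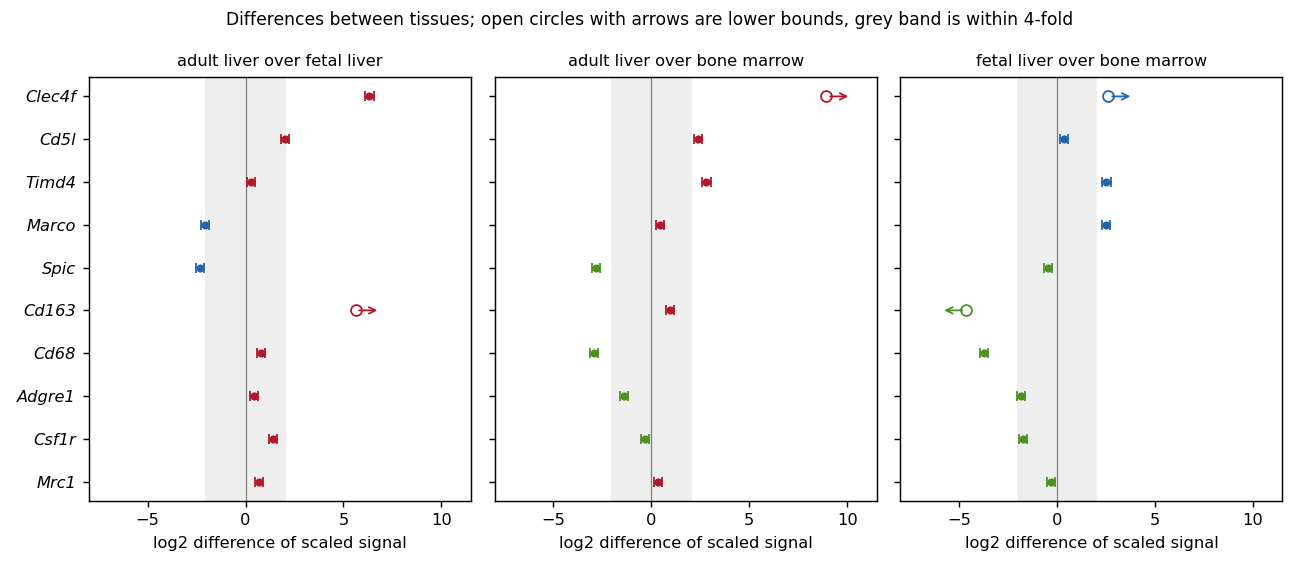
Log2 difference in scaled signal of the 10 genes for each pair of tissues (points, with the propagated spot error as bars; open circles with arrows mark lower bounds, the colour gives the tissue with the higher level, in red for adult liver, blue for fetal liver and green for bone marrow, and the grey band is within 4-fold). Clec4f lies furthest to the right between adult liver and fetal liver at 6.32, and Cd68 is below the band in both comparisons with bone marrow.

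Between adult liver and bone marrow, Clec4f, Timd4 and Cd5l were higher in adult liver, Cd68 and Spic were higher in bone marrow, and Cd163 and Marco were within 4-fold. At least 4-fold higher in adult liver were 3 of the 10 genes (Clec4f, Cd5l and Timd4), against 18.8% of the 14245 genes compared, and at least 4-fold lower were 2 (Spic and Cd68), against 15.0%. In either direction this is 5 of 10, against 33.8% of genes. The median difference of the 10 genes was 0.40 on the log2 scale, against 0.09 over all genes. With arrays scaled to the spike-in controls instead, Cd5l had -0.46 and Timd4 -0.029 on the log2 scale, so that neither was higher in adult liver, and quantile normalization gave Cd5l 1.79. With normexp and quantile normalization Cd5l had 1.78 and Timd4 1.68. The median of all genes moved by -2.83 under spike-in scaling, and whether equal amounts of spike-in RNA were added is not given in the sources used here.

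Past 4-fold, the other Kupffer cell genes again differed in the direction of adult liver, 5 of 12 being higher there and none in bone marrow. Other macrophage genes past 4-fold differed in the direction of bone marrow, 0 of 20 being higher in adult liver and 10 in bone marrow. The median of the Kupffer cell genes was 1.85 on the log2 scale, but -0.98 under spike-in scaling, and that of the other macrophage genes was -1.999. Against the counts of these and the next lists stand 18.8% of all genes higher in adult liver and 15.0% higher in bone marrow. Folr2, a folate receptor of tissue macrophages, was 23.2-fold and C6 119-fold higher in adult liver. Itgam, the integrin CD11b of monocytes, neutrophils and macrophages, was at least 60.3-fold lower in adult liver, and Itgb2, its partner chain, 53.0-fold lower. Monocyte genes were lower in adult liver for 5 of 9 genes and higher for none. Their summed scaled signal was 2083 in adult liver, 870 in fetal liver, against 30922 in bone marrow. Fn1 gave 850 of the adult liver sum, and 5 of the 9 genes were well above background in that tissue. Between the livers, 2 of the 9 were higher in adult liver and 3 in fetal liver. Neutrophil genes were lower in adult liver for 8 of 8. Dendritic cell genes were lower in adult liver for 5 of 8 and B cell genes for 5 of 5. Megakaryocyte genes were lower for 5 of 6, with a summed scaled signal of 485 in adult liver, 14379 in fetal liver, against 15784 in bone marrow, and erythroid genes for 6 of 7. The part of these cells in the Cd68 and Spic differences was not tested.

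Genes of liver sinusoidal endothelium, which also carries Mrc1, included 7 of 9 higher in adult liver and none in bone marrow (2 and 2 under spike-in scaling). Of these, Cdh5 is also among the other Kupffer cell genes, and Stab1 and Stab2 are also among the scavenger receptors. The summed scaled signal of the 9 genes was 5593 in adult liver, 2444 in fetal liver, against 1063 in bone marrow. Clec4g gave 2666 of the adult liver sum, and Fcgr2b gave 730 of the bone marrow sum. Mrc1 itself was 1.29-fold higher in adult liver. Of 13 scavenger receptors and related proteins compared, 4 were higher in adult liver and 2 in bone marrow, with a median of 1.01 on the log2 scale, or -1.82 under spike-in scaling. Colec12, a scavenger receptor with a lectin domain, was 10.8-fold and Stab1, a scavenger receptor of endothelium and macrophages, 7.10-fold higher in adult liver. Olr1, a receptor for oxidised lipoprotein, was at least 13.9-fold lower in adult liver, and Cd5, a lymphocyte protein with the domains of Cd5l, 5.18-fold lower. Msr1 was 1.68-fold higher in adult liver by its brightest probe and 1.304-fold lower by the second, and its dimmest probe was at least 2.26-fold lower.

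Growth factors and transcription factors split, with 2 of 15 higher in adult liver and 6 in bone marrow. Spi1 was at least 12.6-fold lower in adult liver and Spib, a related ETS factor of B cells and plasmacytoid dendritic cells, at least 126-fold lower. Csf2ra, a chain of the receptor for GM-CSF, was 18.0-fold lower. Cebpa was 12.7-fold higher in adult liver. Csf1 and Il34, the ligands of the Csf1r protein, were within 4-fold, at 1.40-fold lower and 1.35-fold higher in adult liver.

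Of 13 engulfment genes compared, 3 were higher in adult liver and 3 in bone marrow, with a median of 0.82 on the log2 scale, or -2.03 under spike-in scaling. The relatives of Timd4 were split. In adult liver, Timd2 was higher by at least 69.3-fold and Havcr1 by 54.3-fold on its brighter probe, but the other Havcr1 probe was at least 1.87-fold lower, and Havcr2, named after its values were seen, was 3.86-fold lower. Elmo1, which acts in engulfment and cell migration, was at least 23.8-fold lower in adult liver, and 1 of its 3 probes passed 4-fold. Cd47, the signal against engulfment, was 5.29-fold lower, and 2 of its 4 probes passed 4-fold. Of the island and recycling genes, 2 of 17 were higher in adult liver and 4 in bone marrow: Hpx was at least 6971-fold and Dnase2a, the nuclease that digests expelled red cell nuclei, 11.6-fold higher, while Icam4 was at least 98.3-fold and Epor 32.4-fold lower.

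Of 15 relatives of the 10 genes, 3 were higher in adult liver and 4 in bone marrow. Adgre5 was 4.02-fold lower in adult liver, beside Adgre1 at 2.65-fold lower, and Adgre4 1.88-fold lower. Clec10a, a galactose-binding C-type lectin of macrophages and dendritic cells, was 19.0265-fold lower in adult liver, opposite to Clec4f. Pla2r1 was at least 11.4-fold and Adgrf5 7.75-fold higher, Ly75 26.5-fold lower, and Mrc2 1.75-fold higher. Under spike-in scaling the counts higher and lower in adult liver were 0 and 9 for the relatives (14 compared), 0 and 12 for growth factors and transcription factors, 1 and 12 for island and recycling genes, and 1 and 4 for the other Kupffer cell genes.

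Between fetal liver and bone marrow, Clec4f, Timd4 and Marco were higher in fetal liver, and Cd163 and Cd68 were lower. The first 3 are 3 of the 10 genes, against 9.29% of the 14680 genes compared, and the other 2 stand against 8.32%. In either direction this is 5 of 10, against 17.6% of genes. The median difference of the 10 genes was -0.40 on the log2 scale, against 0.26 over all genes. With normexp background correction Clec4f had at least 1.65 and Timd4 1.90 on the log2 scale, which left Marco alone at 4-fold or more in fetal liver, as did normexp with quantile normalization, and the deposited normalized values gave Clec4f at least 1.58. With spike-in scaling none of the 3 reached 4-fold.

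Macrophage genes outside the set were lower in fetal liver in most cases. Against the counts of the lists below stand 9.29% of all genes higher in fetal liver and 8.32% lower. Of 20 other macrophage genes, 12 were lower in fetal liver and none higher, with a median difference of -3.01 on the log2 scale, among them Itgam at 79.6-fold and Itgb2 at 51.7-fold lower. Spike-in scaling gave 0 of 12 other Kupffer cell genes higher in fetal liver and 7 lower, and normexp background correction 1 and 0 of 11. With percentile scaling, 1 of the 12 was higher in fetal liver and 2 lower. The higher one was Cdh5, a cadherin of endothelium that Kupffer cells also carry, at 7.61-fold, and the lower ones were Vsig4 at least 11.1-fold and Pltp, a phospholipid transfer protein, at least 8.20-fold. Monocyte genes were lower in fetal liver for 6 of 9, and neutrophil genes for 8 of 8. Sinusoidal endothelium genes were higher in fetal liver for 6 of 9 and lower for 1 (2 and 2 under spike-in scaling), while of 7 erythroid genes none was 4-fold apart (3 lower under spike-in scaling).

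Of 15 growth factors and transcription factors, none was higher in fetal liver and 7 were lower (13 under spike-in scaling), among them Spi1 at least 20.7-fold and Spib at least 209-fold. Il34 was 7.45-fold lower in fetal liver and Csf1 1.13-fold lower. Of 13 scavenger receptors and related proteins compared, 2 were higher in fetal liver and 4 lower, or 0 and 9 under spike-in scaling. The higher ones were Stab1 at 6.58-fold and Stab2, its relative on sinusoidal endothelium, at 4.33-fold. Olr1 was 8.05-fold, Cd6, a lymphocyte protein of the Cd5l domain family, 7.83-fold, and Cd5 itself 2.80-fold lower. Msr1 was 1.20-fold higher in fetal liver by its brightest probe and 1.94-fold lower by the second, and its dimmest probe was at least 3.72-fold lower.

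Of 14 engulfment genes, 4 were higher in fetal liver and 2 lower, or 1 and 9 under spike-in scaling. Normexp background correction gave 2 and 2. In fetal liver, Timd2 was higher at least 53.6-fold and Havcr1 7.81-fold on its brighter probe, beside Timd4 at 5.70-fold, while the other Havcr1 probe was 2.65-fold and Havcr2 1.91-fold lower. Elmo1 was 7.89-fold lower, with 1 of its 3 probes past 4-fold, and Gas6 6.04-fold lower. Of 17 island and recycling genes, 1 was higher in fetal liver, Hpx at least 135-fold, and 2 were lower, Hp 52.1-fold and Slc11a1, a metal transporter of phagosomes, 4.55-fold. Spike-in scaling gave 1 and 10. Among the 14 relatives compared, 1 was higher in fetal liver (Mrc2, 4.62-fold) and 3 were lower, with Clec10a 37.7-fold, Adgre4 12.2-fold and Adgre5 7.91-fold. Spike-in scaling gave 0 and 8, of 13 compared.

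**Figure D3:**
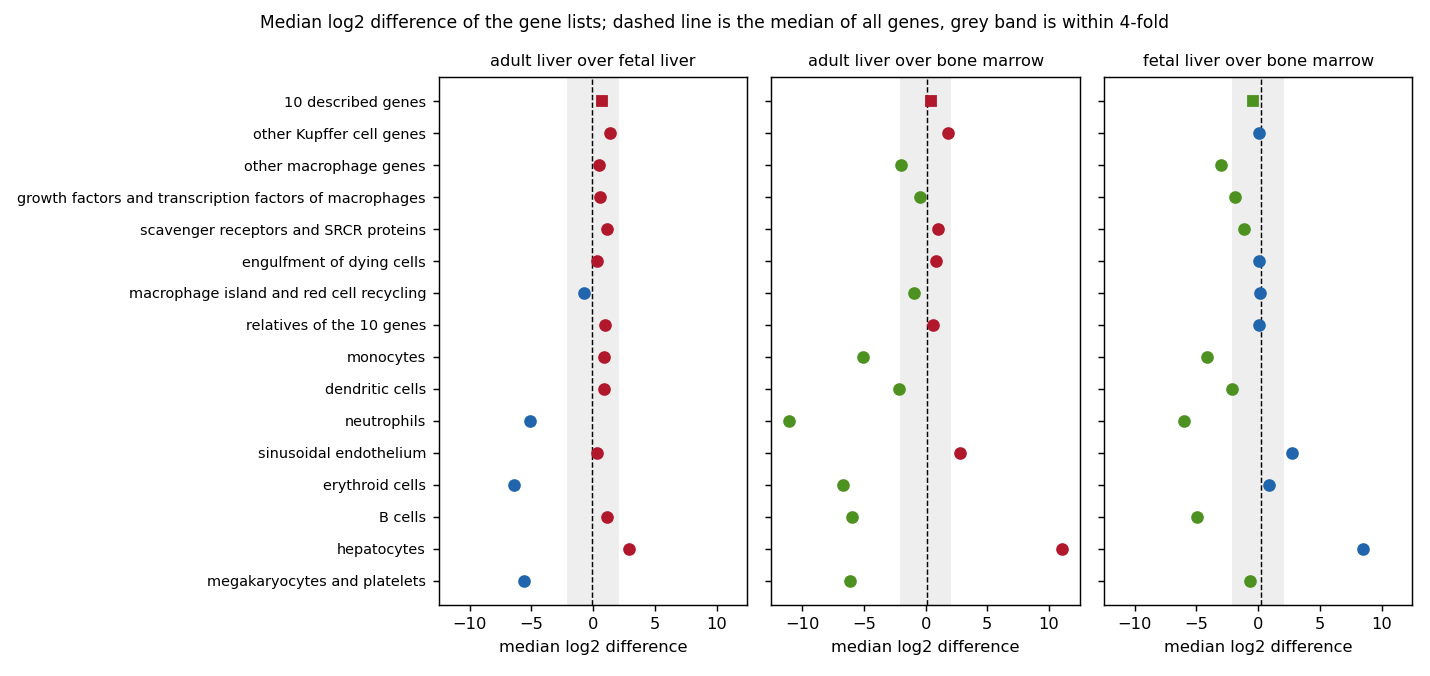
Median log2 difference of each gene list for each pair of tissues, with the 10 genes at the top and the median of all genes as a dashed line; the colour gives the tissue with the higher median, in red for adult liver, blue for fetal liver and green for bone marrow. Other Kupffer cell genes have medians of 1.34 for adult against fetal liver and 1.85 for adult liver against bone marrow, and neutrophil genes lie furthest left between adult liver and bone marrow at -11.1.

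A ratio to Adgre1 within each array does not depend on a scaling that divides all signals of an array by 1 factor, as those to a percentile, the median or the spike-in controls do, though quantile normalization can change it. This ratio was chosen after the values were seen. Relative to Adgre1, Clec4f was 58.4-fold higher in adult than in fetal liver, Cd163 at least 35.8-fold and Cd5l 2.997-fold higher, whereas Marco was 5.69-fold and Spic 6.86-fold lower in adult liver. Relative to Adgre1, 4 genes were over 10-fold apart between a liver and bone marrow: Clec4f at least 1300-fold, Timd4 18.4-fold and Cd5l 13.6-fold higher in adult liver, and Timd4 20.7-fold, Clec4f at least 22.3-fold and Marco 20.4-fold higher in fetal liver. Part of each distance comes from Adgre1, which itself lay 2.65-fold (adult liver) and 3.63-fold (fetal liver) below bone marrow. Before division by Adgre1, Timd4 lay 6.95-fold (adult liver) and 5.70-fold (fetal liver) above bone marrow. Cd5l lay 5.14-fold above it in adult liver, and Marco 5.62-fold in fetal liver. Timd4, Cd5l and Marco thus passed 10-fold only after that division. Cd68 stayed lower relative to Adgre1 in both livers, 2.88-fold in adult liver and 3.68-fold in fetal liver, against bone marrow. Csf1r kept close to Adgre1 between fetal liver and bone marrow, at 1.09-fold.

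**Figure D4:**
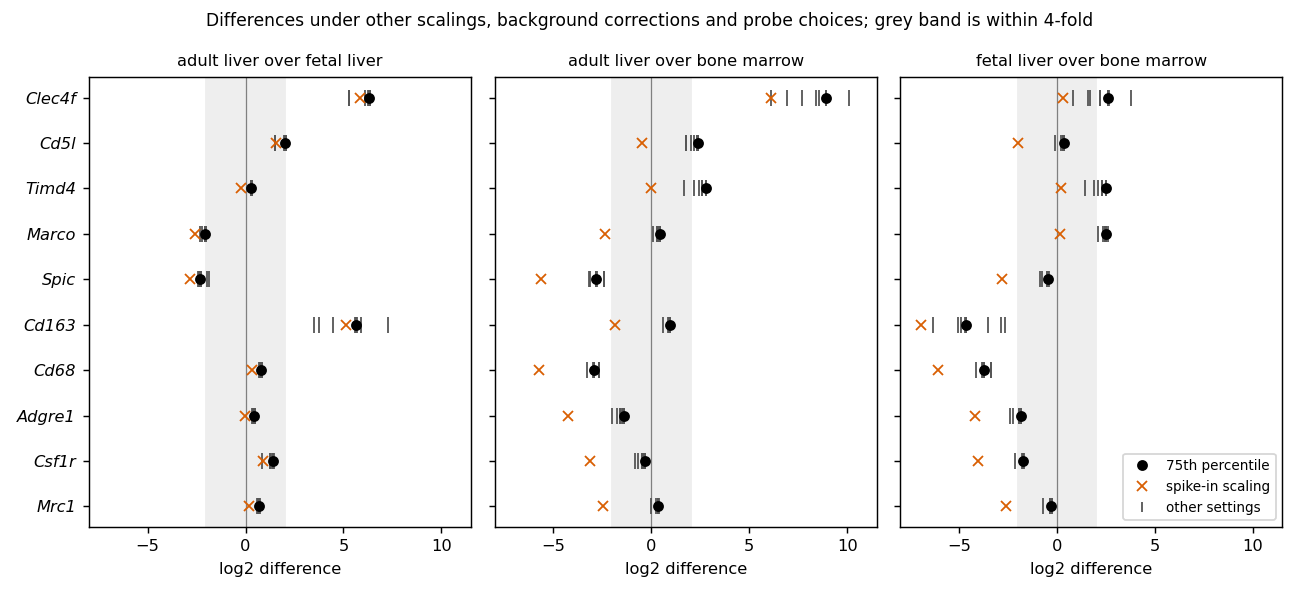
Log2 differences of the 10 genes with 75th percentile scaling (black points), spike-in scaling (orange crosses) and the other settings (ticks); the grey band is within 4-fold. Clec4f stays above the band between adult and fetal liver, from 5.27 to 6.37, while spike-in scaling moves Cd5l between adult liver and bone marrow to -0.46.

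The patterns of the 8 genes well above background on all 3 arrays were set against each other and against 11562 further genes by Euclidean distance over the 3 centred log2 values. Within the set, Adgre1 and Csf1r were nearest, at 0.83, and Timd4 and Cd68 furthest, at 4.91. Outside the set and its lists, the nearest genes were Klk9 and Cpne8 to Cd5l, Itga8 and Stard4 to Timd4, Dpf1 and Prpf4b to Marco, Adprh and Dhrs11 to Spic, Sh3bp2 and B230208H11Rik to Cd68, Etv6 to Adgre1, Amn1 and Gm6548 to Csf1r, and Pef1 and Cox7a2l to Mrc1. With 3 points per gene such likeness is common: 325 genes lay within 0.25 of Mrc1 and 96 of Cd5l, but 17 of Marco and 4 of Cd68.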

How the data were processed

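The arrays were 1-colour Agilent arrays, 1 per tissue, read from the deposited scanner tables. The deposited intensity is the processed signal of Agilent Feature Extraction 10.5.1.1, per the submitters' processing notes, with spatial and multiplicative detrending switched on, per the file headers, and a fitted background removed from the mean signal in the files' own columns. The headers also give the build mm9 and 1 slide for all 3 arrays. The authors' table of the whole series holds a raw and a normalized ratio-like column without a stated scale: on each array, all 45018 values of the raw column lay within 1% of the software's error of the signal, so that column was not used, and the normalized values, with medians of 0.187 in adult liver, 0.130 in fetal liver, against 0.0936 in bone marrow, served as an alternative.

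Control spots and outlier-flagged spots (75 in adult liver, 71 in fetal liver, against 80 in bone marrow) were left out. Each array was scaled to the 75th percentile of its gene spots, log2 was taken, and spots of one probe were averaged. Of 41174 probes, 24844 were named through an accession, 6045 through a current symbol and 1796 through an older one, and 8489 had no name. The probe well above background on most arrays, then the brightest, stood for a gene. Stab1, Ly75, Pla2r1, Dnase2a, Cd6, Cdh5 and Mrc2 each have 2 probes. Where a difference of theirs is given as past 4-fold, 1 of the 2 probes passed. Genes were called from 4-fold upwards. With 1 array per tissue no test was possible, and the number of arrays limits the precision. Only the calling step was tested on simulated data, with changes larger than the threshold and the noise of repeat spots, which is below the spot errors. Scaling was not tested in this way. The alternatives were 4 other scalings, normexp (offset 50, limma 3.58.1 in R 4.3.3) with and without quantile normalization, other probe and background rules, thresholds of 2-fold and 8-fold, and the deposited normalized values.

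The 10 genes and all lists were chosen with earlier results of these data known. Some genes stand in several lists, among them Cdh5, Stab1, Stab2, Msr1, Mertk, Hmox1, Slc40a1, Clec1b, Epor and Flt3, so list counts overlap. All 10 genes are named. Per list and pair of tissues, the rule named the 2 genes furthest apart each way among those past 4-fold, plus the ligands and close relatives of the 10 genes. Likeness names the 2 nearest genes outside the lists. Some genes that these rules name are not reported here. Promoters are those of RefSeq, build GRCm38.p6.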

Additional observations from a re-analysis of the deposited data

How the results depend on the processing

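The 30 differences of the 10 genes (3 pairs of tissues) were recomputed under 12 other settings, except that the 4 bounds have no value where both probes had to be well above background, and the counts of genes past the threshold under 14. Except for spike-in scaling, which turned the sign of 8 differences, and scaling to the median of all gene spots, which turned 1 (Cd5l between fetal liver and bone marrow, -0.09 on the log2 scale), no setting turned a sign. With spike-in scaling the count for adult liver over bone marrow was 1 higher and 6 lower; the count higher in fetal liver than in bone marrow was 0 and lower 6; Cd5l had -0.46 and Timd4 -0.029 between adult liver and marrow; the cause was not tested. That scaling moved the median of all genes by -0.50 between the livers, -2.83 between adult liver and bone marrow and -2.32 between fetal liver and bone marrow, and gave 1501 genes higher and 2566 lower in adult than in fetal liver, 849 and 9635 against bone marrow, and 315 and 7791 for fetal liver against bone marrow. It turned the median of 3, 4 and 5 of 15 gene lists in these comparisons. Scaling to the median gave 4 genes of the set lower in fetal liver than in bone marrow. Of all genes, 1580 were then lower and 1000 higher in fetal liver. The median of all genes shifted by -0.36 between adult liver and bone marrow and by -0.41 between fetal liver and bone marrow. Scaling to the median also turned 4 list medians in the comparison of fetal liver with bone marrow, as did quantile normalization. Normexp left 1 gene lower in adult than in fetal liver, since Spic had -1.87, and 1 higher in fetal liver than in bone marrow. With quantile normalization added, the counts were again 1 and 1, and 1 gene was higher in adult liver against bone marrow. Keeping only probes well above background on both arrays left 1 gene lower in fetal liver than in bone marrow, since Cd163 has only a bound. At 2-fold the count lower in fetal liver than in bone marrow was 4. At 8-fold, 0 were lower in adult than in fetal liver, 1 was higher and 0 lower in adult liver against bone marrow, and 0 higher in fetal liver than in bone marrow. Other settings moved no count of the set by more than 1.5 times. No paired analysis was possible because each tissue has 1 array. Folds against probes near background (Clec4f in bone marrow, Cd163 in fetal liver) are bounds set by background.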
